A study of Homo sapiens with 20 samples.

Results

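Hepatocytes make most of the proteins that circulate in blood plasma, and 35 genes for such proteins were followed here through 20 RNA-seq libraries of MHCC-97H, a human hepatocellular carcinoma line. The genes were listed by symbol, with earlier results of these data known: carriers, apolipoproteins, protease inhibitors, coagulation and fibrinolysis proteins, and complement proteins. Of the 35, 34 were among the 26038 genes of the deposited table, and the expression of PLG (plasminogen) was not analysed here. There were 4 groups of 5 libraries. The cells of all groups stood in a water bath for 15 minutes and were then cultured for 24 hours. R-47 and R-37 were wild-type cells given a bath at 47 °C and at 37 °C. NFS1 cells carried an shRNA against NFS1, the cysteine desulfurase that supplies sulfur for iron-sulfur clusters, and NC cells were labelled wild type, and both had the 47 °C bath. By the design text, the bath models cells that survive incomplete microwave ablation of a tumour. Whether replicate libraries were grown as separate cultures is not stated in the labels, and the p-values therefore reflect the spread among libraries, part of which may be technical. By the labels all groups come from a single tumour line, and the labels name no vector for NC.

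In liver, these genes are read mainly in hepatocytes under liver-enriched factors such as HNF4A, FOXA and C/EBP proteins. Their products are folded in the endoplasmic reticulum, moved through the Golgi and secreted. In the acute phase response, interleukin-6 acting through STAT3, together with interleukin-1, raises some of them (fibrinogen, haptoglobin, alpha-1-antitrypsin, C3) and lowers others (albumin, transthyretin). Hepatocellular carcinoma cells often keep only part of this programme.

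Each library held 32219946 to 39689939 counts, and 18105 to 20480 genes had at least 1 count. R-37 library 5 and NFS1 library 4 lay farthest from their own groups, with a median absolute log2 deviation of 0.217 and 0.282 across genes, against 0.0782 to 0.176 in the other libraries. NFS1 itself had 70.7, 65.2, 64.2, 64.0 and 68.3 CPM (counts scaled to library size) in the libraries labelled NFS1 knockdown, against 71.5, 72.7, 71.4, 71.8 and 75.9 CPM in NC. The groups did not overlap, but the difference was small and not called: log2 fold change -0.11, SE 0.05, adjusted p = 0.114 by edgeR's quasi-likelihood test with Benjamini-Hochberg adjustment. NFS1 was called lower by DESeq2 (-0.12, adjusted p = 0.0334) and with all libraries in 1 edgeR fit (-0.13, adjusted p = 0.0485). The cell type label was checked against 19 hepatocyte markers, of which 7 to 10 averaged at least 1 CPM in a group. AFP averaged 4.00, 4.27, 3.68 and 5.17 CPM in R-47, R-37, NFS1 and NC, while GPC3, G6PC1, ARG1 and SLC10A1 were at or near 0 in all 4 groups. Some markers of intestinal epithelium were present as well (CDH17, CDX2, VIL1 and LGALS4), CDH17 at 253, 293, 179 and 243 CPM and CDX2 at 12.1, 10.4, 13.8 and 19.0 CPM. Others were low in all 4 groups, SI at 0, 0, 0.0708 and 0.0518 CPM and APOA4 at 0.515, 0.486, 0.0305 and 0.1025 CPM. NC and R-47 carry the same cell line, genotype and bath in their labels, yet 79.7% of the genes tested differed between them, and KRT19 averaged 0.793 CPM in NC and 423 CPM in R-47. That both experiments used the same cells therefore rests on the labels alone.

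The plasma protein genes were a small part of every library. Together they took 0.0311 to 0.0328% of the counts in R-47, 0.0435 to 0.0487% in R-37, 0.0226 to 0.0248% in NFS1 and 0.0226 to 0.0230% in NC. In each library 25 to 30 of the 34 genes had at least 1 count. A mean of at least 1 CPM was reached by 19 genes in R-47, 19 in R-37, 14 in NFS1 and 13 in NC. A mean of at least 10 CPM was reached by 8, 10, 5 and 4 genes. For TTR (transthyretin, carrier of thyroxine and partner of RBP4), APOA2, APOC3, SERPINC1 (antithrombin), ITIH1, ITIH3, HP (haptoglobin) and C3 (the central complement protein), no library of any group held more than 15 counts. TTR had 0.0820, 0.0281, 0, 0.140 and 0 CPM in R-47 and 0.205, 0, 0, 0.0347 and 0 CPM in R-37, and 0.153, 0.0249, 0.0505, 0 and 0 CPM in NFS1 and 0.0525, 0, 0.0256, 0 and 0.0254 CPM in NC. C3, among the most abundant complement transcripts of normal liver, had 0.109, 0.0843, 0.0272, 0.0842 and 0.0298 CPM in R-47 and 0.0292, 0.0563, 0.0853, 0.0694 and 0.0625 CPM in R-37, and 0.153, 0.224, 0.354, 0.153 and 0.101 CPM in NFS1 and 0.0525, 0.0256, 0.102, 0.227 and 0.102 CPM in NC. TTR held at most 7 counts in a library and C3 at most 14, in NFS1 library 3, and neither gene entered a test.

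Levels of different genes were compared per length, as the deposited FPKM (fragments per kilobase of gene and per unit of library size). ITIH2, the heavy chain 2 of the inter-alpha-trypsin inhibitors that bind hyaluronan in the extracellular matrix, led in the first experiment, with 38.2 ± 1.90 FPKM in R-47 and 68.7 ± 3.58 FPKM in R-37 (SD, n = 5 each). ITIH2 alone held 36.6 to 39.8% of the counts of the 34 genes in R-47 libraries and 45.6 to 47.8% in R-37 libraries. APOH (beta-2-glycoprotein I, which binds phospholipid) followed with 24.0 ± 0.839 FPKM in R-47 and 22.7 ± 1.85 FPKM in R-37, and APOC1, a small apolipoprotein of lipoprotein surfaces, with 17.8 ± 1.32 FPKM in R-47 and 17.6 ± 3.40 FPKM in R-37. In the second experiment APOC1 and FGB stood first, with 31.7 ± 6.39 and 31.7 ± 1.83 FPKM in NFS1, and 40.2 ± 3.41 and 29.7 ± 0.886 FPKM in NC. FGB, the fibrinogen beta chain, held 47.1 to 50.8% of the counts of the 34 genes in NFS1 libraries and 46.0 to 49.7% in NC libraries. ALB, the most abundant plasma protein in the body, reached 2.11 ± 0.311 FPKM in R-47, 5.52 ± 0.630 in R-37, 0.304 ± 0.0804 in NFS1 and 0.400 ± 0.202 in NC.

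**Figure D1:**
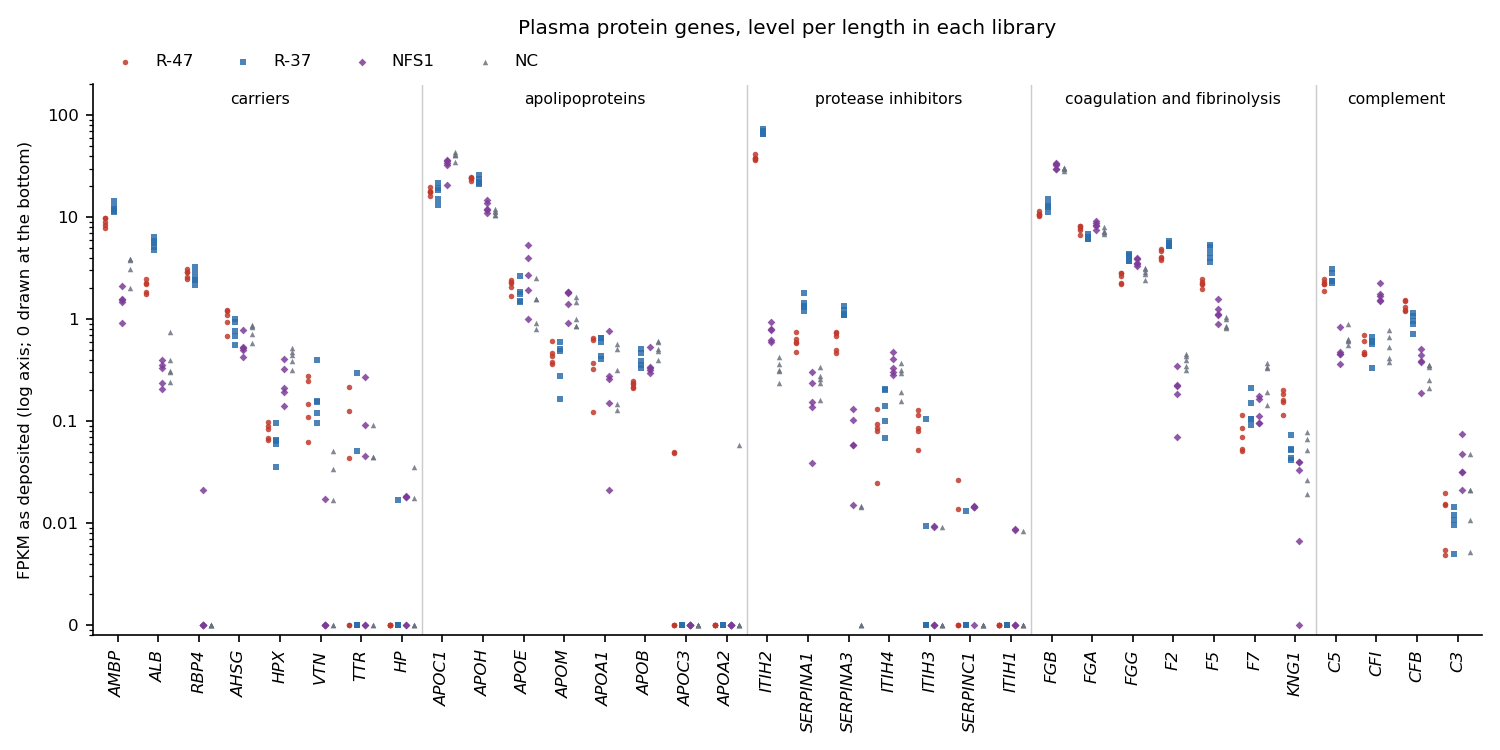
Deposited FPKM of the 34 genes in each of the 20 libraries, on a log axis with 0 drawn at the bottom, grouped by role and ordered by mean level. ITIH2 lies highest in R-47 and R-37 and near 1 FPKM or lower in NFS1 and NC, where APOC1 and FGB lie highest.

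The comparison of R-47 with R-37 shows what the heated cells held a day after the bath. Most of the plasma protein genes that changed fell: ALB, SERPINA1, F5, SERPINA3, ITIH2 and APOB were 1.89 to 2.76 times lower in R-47, while APOH, APOC1, APOE and RBP4 did not pass the test. Of the 34 genes, 24 passed the filter on low counts, and 3 of these were called higher and 11 lower, where a call is an adjusted p under 0.05 over all 14344 genes tested. That is 58.3% of the genes tested, beside 25.1% of all genes, of which 11.9% were called higher and 13.2% lower. Of the 24 tested, 12 (50%) were called with no overlap between the 5 R-47 and the 5 R-37 libraries, beside 16.7% of all genes tested. The median log2 fold change was -0.376, beside -0.00758 over all genes. A call with a change over 2-fold was made for 4 genes (16.7%), beside 2.19% of all genes. KNG1, 1 of the 3 called higher, passed the filter only through R-47, so its direction was set by the filter. Among the 19 genes at the filter's level in every library of both groups, 2 were called higher and 11 lower, 11 without overlap and 3 with a change over 2-fold. Bulk libraries do not tell fewer expressing cells from less RNA per cell. Without R-37 library 5, 2 of the 34 genes were called higher and 10 lower, and the number called higher was 1 without any of R-47 libraries 2 to 5 or R-37 libraries 3 or 4.

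Among the 8 carriers, 4 were tested and 2 fell. ALB had 5.41, 5.99, 4.44, 4.18 and 5.49 CPM in R-47 and 14.5, 14.8, 12.1, 13.1 and 16.1 CPM in R-37, so that the highest R-47 library lay below every R-37 library. For ALB the log2 fold change was -1.46 (SE 0.11, adjusted p = 2.5e-07). AMBP, the precursor of alpha-1-microglobulin, which binds haem, and of bikunin, the protease inhibitor chain that is joined to ITIH heavy chains, had 13.2, 13.3, 11.3, 10.3 and 11.8 CPM in R-47 and 20.4, 16.3, 17.9, 17.1 and 15.7 CPM in R-37. For AMBP the log2 fold change was -0.54 (SE 0.09, adjusted p = 0.0005). RBP4, the retinol carrier, had 4.05, 4.24, 3.62, 3.37 and 4.00 CPM in R-47 and 3.16, 4.11, 3.55, 4.72 and 3.59 CPM in R-37, with overlapping groups and a log2 fold change of 0.02 (95% interval -0.24 to 0.28). AHSG (fetuin-A, which binds calcium phosphate) averaged 1.72 ± 0.363 CPM in R-47 and 1.39 ± 0.325 CPM in R-37, and it was not called. VTN (vitronectin) and HPX (hemopexin, the haem carrier) were too low to test, with means of 0.290 and 0.135 CPM in R-47 and 0.338 and 0.113 CPM in R-37.

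The apolipoproteins were split. APOB, the scaffold of very low and low density lipoproteins, fell, with 3.25, 3.68, 3.57, 3.40 and 3.16 CPM in R-47 and 5.35, 8.11, 6.11, 5.55 and 7.22 CPM in R-37. For APOB the log2 fold change was -0.92 (SE 0.13, adjusted p = 0.000121). The other 5 tested apolipoproteins were not called, and their groups overlapped. APOH averaged 29.9 ± 1.15 CPM in R-47 and 29.9 ± 2.27 CPM in R-37, with a log2 fold change of 0.00 (95% interval -0.12 to 0.13). APOC1 averaged 15.6 ± 1.17 CPM in R-47 and 16.2 ± 3.22 CPM in R-37, and APOE, a ligand of lipoprotein receptors, 3.21 ± 0.442 CPM in R-47 and 2.93 ± 0.778 CPM in R-37. APOM, the carrier of sphingosine-1-phosphate, and APOA1, the main protein of high density lipoprotein, stayed under 1 CPM in every R-47 and R-37 library.

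All 3 protease inhibitors that were called fell. SERPINA1 (alpha-1-antitrypsin, the inhibitor of neutrophil elastase) had 2.90, 1.83, 2.29, 2.47 and 2.33 CPM in R-47 and 7.46, 5.41, 5.54, 4.86 and 5.81 CPM in R-37. For SERPINA1 the log2 fold change was -1.29 (SE 0.15, adjusted p = 1.88e-05). SERPINA3 (alpha-1-antichymotrypsin) had 1.37, 0.927, 1.47, 0.983 and 1.49 CPM in R-47 and 2.34, 2.31, 2.39, 2.60 and 2.81 CPM in R-37. For SERPINA3 the log2 fold change was -0.99 (SE 0.18, adjusted p = 0.00108). ITIH2, the gene with the most counts of the 34, had 138, 127, 127, 120.1 and 124 CPM in R-47 and 244, 259, 232, 229 and 246 CPM in R-37, with little spread inside either group. For ITIH2 the log2 fold change was -0.92 (SE 0.05, adjusted p = 1.98e-08). ITIH4 averaged 0.291 ± 0.136 CPM in R-47 and 0.527 ± 0.225 CPM in R-37 and was not called (log2 fold change -0.85, adjusted p = 0.138). ITIH3 lay below the filter with 52 counts over the 5 R-47 libraries together and 0.351, 0, 0, 0 and 0.0312 CPM in the R-37 libraries, where library 1 alone held almost all of it.

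Of the 7 tested coagulation genes, 4 were called lower, and of the 2 called higher KNG1 passed only through R-47 and FGA lost its call without most single libraries. F5, the cofactor of factor Xa, had 24.4, 21.6, 23.0, 19.4 and 21.4 CPM in R-47 and 38.1, 53.0, 41.2, 45.9 and 54.9 CPM in R-37. For F5 the log2 fold change was -1.08 (SE 0.10, adjusted p = 1.63e-06). F2 (prothrombin) had 8.31, 8.57, 10.4, 9.80 and 7.99 CPM in R-47 and 11.7, 11.8, 11.8, 12.3 and 12.8 CPM in R-37, a smaller and narrower separation, also without overlap. For F2 the log2 fold change was -0.41 (SE 0.08, adjusted p = 0.00243). KNG1 (kininogen, the source of bradykinin) lay higher in R-47 at a very low level, the direction set by the filter, with 0.820, 0.899, 0.681, 0.702 and 0.507 CPM in R-47 and 0.205, 0.197, 0.341, 0.243 and 0.250 CPM in R-37. F7, the factor that starts the extrinsic pathway together with tissue factor, averaged 0.320 ± 0.113 CPM in R-47 and 0.602 ± 0.227 CPM in R-37 and was not called (log2 fold change -0.91, adjusted p = 0.0602), but passed without R-47 library 3 (adjusted p = 0.0427). On its R-47 libraries alone F7 would not have passed the filter, so the filter favoured its direction.

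The 3 fibrinogen chains enter the secreted hexamer in equal numbers. Their genes lie side by side, at chr4:154562980-154572807 (FGB), chr4:154583126-154590742 (FGA) and chr4:154604136-154612656 (FGG) in GRCh38.p14. They did not move together. FGB had 39.8, 45.2, 41.2, 41.2 and 42.0 CPM in R-47 and 52.0, 53.7, 46.2, 52.6 and 61.1 CPM in R-37, and the groups did not overlap. For FGB the log2 fold change was -0.34 (SE 0.07, adjusted p = 0.00211). FGG had 5.00, 6.35, 5.91, 6.23 and 4.92 CPM in R-47 and 9.82, 8.81, 10.1, 8.68 and 10.2 CPM in R-37, also without overlap. For FGG the log2 fold change was -0.74 (SE 0.10, adjusted p = 8.5e-05). FGA had 27.8, 33.9, 32.4, 33.6 and 30.9 CPM in R-47 and 26.8, 29.8, 28.2, 26.6 and 27.9 CPM in R-37, and here the R-47 libraries lay slightly higher with an overlap. For FGA the log2 fold change was 0.19 (SE 0.07, adjusted p = 0.0432). The FGA call was lost on leaving out any of R-47 libraries 2 to 5 or R-37 libraries 1, 3 and 4, with an adjusted p of up to 0.115. Per length, FGB averaged 10.8 ± 0.519, FGA 7.65 ± 0.621 and FGG 2.55 ± 0.308 FPKM in R-47, against 12.9 ± 1.35, 6.36 ± 0.313 and 4.04 ± 0.310 FPKM in R-37, so the chains were unequal in both groups.

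The promoters of the 3 fibrinogen genes and of ALB are printed because the fibrinogen neighbours differed in direction and ALB had the largest fall. They are the RefSeq sequences of GRCh38.p14, 250 bases before to 50 bases after the start, at chr4:154562730-154563029 (plus strand) for FGB, chr4:154590693-154590992 (minus strand) for FGA, chr4:154612607-154612906 (minus strand) for FGG and chr4:73404037-73404336 (plus strand) for ALB. Capitals mark matches, on either strand, to TTGCNNAA (a motif of C/EBP proteins) and CTGGGAA (an acute phase element of STAT3).
FGB: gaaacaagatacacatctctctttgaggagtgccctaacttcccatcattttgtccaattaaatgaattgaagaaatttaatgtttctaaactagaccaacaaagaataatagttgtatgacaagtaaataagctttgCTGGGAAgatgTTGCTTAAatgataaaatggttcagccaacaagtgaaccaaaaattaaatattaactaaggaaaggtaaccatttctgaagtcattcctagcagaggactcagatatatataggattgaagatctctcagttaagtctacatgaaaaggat
FGA: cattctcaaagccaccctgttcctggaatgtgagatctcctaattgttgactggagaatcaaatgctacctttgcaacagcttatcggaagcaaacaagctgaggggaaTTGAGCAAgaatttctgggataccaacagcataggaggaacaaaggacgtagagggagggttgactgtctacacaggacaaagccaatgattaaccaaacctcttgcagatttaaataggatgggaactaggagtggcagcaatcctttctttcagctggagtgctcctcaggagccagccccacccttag
FGG: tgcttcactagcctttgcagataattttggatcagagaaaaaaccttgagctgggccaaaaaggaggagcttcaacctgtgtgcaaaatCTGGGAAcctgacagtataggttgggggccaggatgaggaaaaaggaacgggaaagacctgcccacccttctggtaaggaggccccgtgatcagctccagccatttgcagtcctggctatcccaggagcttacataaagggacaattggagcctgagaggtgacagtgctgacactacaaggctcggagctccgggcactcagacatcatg
ALB: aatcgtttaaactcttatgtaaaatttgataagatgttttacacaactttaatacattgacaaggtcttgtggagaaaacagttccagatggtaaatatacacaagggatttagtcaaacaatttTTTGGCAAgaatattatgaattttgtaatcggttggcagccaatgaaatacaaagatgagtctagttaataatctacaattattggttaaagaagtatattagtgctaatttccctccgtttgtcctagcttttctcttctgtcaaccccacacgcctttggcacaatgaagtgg
FGB held both motifs, with CTGGGAA and TTGCTTAA beginning at -112 and -101 from the start site. FGA and ALB held the C/EBP letters alone, as TTGAGCAA and TTTGGCAA, which match on the opposite strand, and FGG held CTGGGAA alone. The matches do not overlap one another. RefSeq promoters were matched for 27 of the 35 genes. TTGCNNAA occurred in 7 of these 27 (25.9%) and in 10.6% of all 27305 promoters of the same length, and CTGGGAA in 6 (22.2%) and 11%. The TATA box letters TATAAA occurred in 2 (7.41%) and 12%. A match of letters is a description of the window and was not tied to binding in these cells.

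**Figure D2:**
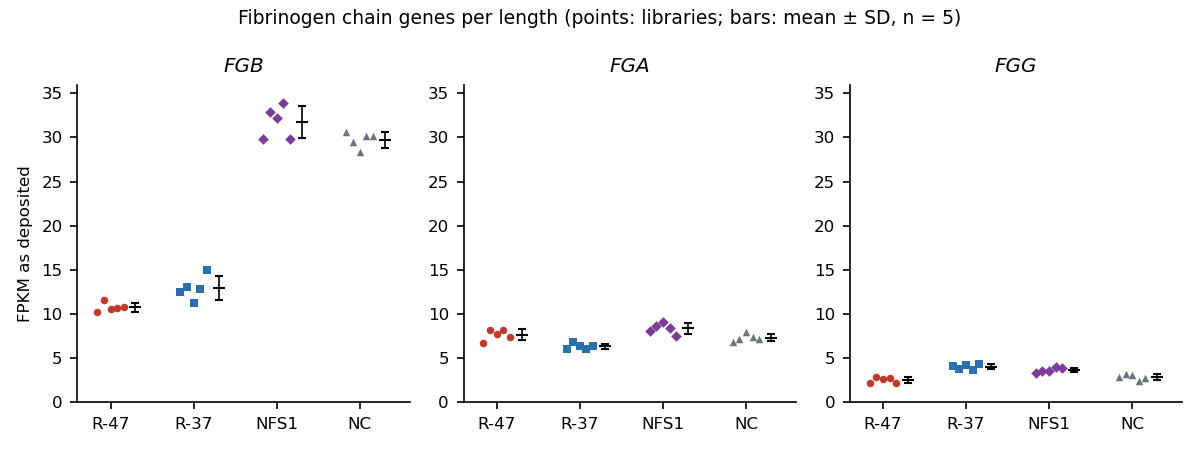
Deposited FPKM of FGB, FGA and FGG in each library (points) with the mean and SD of 5 libraries (bars), in R-47, R-37, NFS1 and NC. FGB stands near 30 FPKM in NFS1 and NC and near 11 to 13 FPKM in R-47 and R-37, while FGA and FGG stay under 10 FPKM in all 4 groups.

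Of the complement genes, CFB (factor B, the protease of the alternative pathway) was called higher, with 4.07, 3.96, 3.19, 3.20 and 3.43 CPM in R-47 and 3.01, 3.18, 1.99, 2.67 and 2.47 CPM in R-37, the lowest R-47 library lying just above the highest R-37 library. For CFB the log2 fold change was 0.43 (SE 0.15, adjusted p = 0.0477). C5, the start of the membrane attack complex, was called lower, with 14.0, 15.7, 14.1, 14.6 and 11.96 CPM in R-47 and 16.0, 20.6, 15.0, 15.6 and 18.7 CPM in R-37 and overlapping groups. For C5 the log2 fold change was -0.28 (SE 0.09, adjusted p = 0.0384). Both calls sat near the threshold. The CFB call was lost on leaving out any of the R-47 libraries or R-37 libraries 3, 4 and 5 (adjusted p up to 0.109), and the C5 call on leaving out R-47 libraries 1, 3, 4 or 5 or R-37 libraries 2 or 5 (adjusted p up to 0.126). CFI, the protease that inactivates C3b and C4b, averaged 1.56 ± 0.310 CPM in R-47 and 1.71 ± 0.407 CPM in R-37 and was not called. By the acute phase, 4 of 7 tested genes known to rise in inflammation fell in R-47 (SERPINA1, SERPINA3, FGG and FGB), beside 13.2% of all genes, and 2 were called higher (CFB and FGA), beside 11.9%. These 2 calls are among those lost without most single libraries. Of 4 tested genes known to fall in inflammation, ALB fell and the other 3 were not called.

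**Figure D3:**
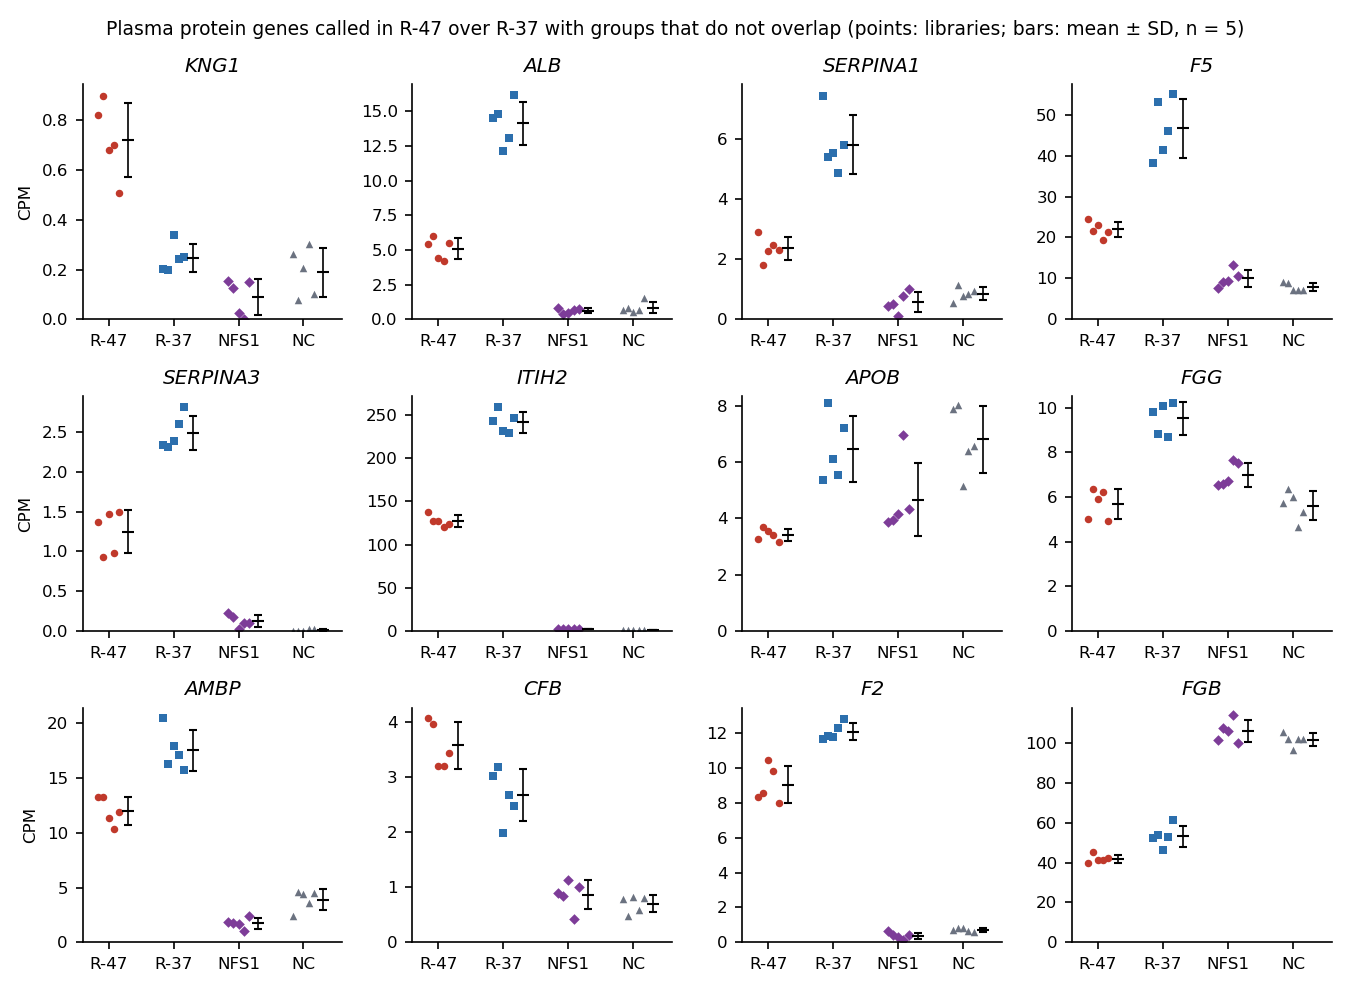
CPM of the 12 plasma protein genes called between R-47 and R-37 whose libraries did not overlap, with each library as a point and the mean and SD of 5 libraries as bars, in all 4 groups. KNG1 and CFB lie higher in R-47 and the other 10 lie lower in R-47. NFS1 and NC lie far below both R groups for ITIH2, ALB, F2 and SERPINA3 and above them for FGB.

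Other plasma proteins of the liver gave no common direction. From a list of 80, 40 were tested, 8 were called higher and 10 lower (45.0%, beside 25.1% of all genes), with a median log2 fold change of 0.075. TF (transferrin, the iron carrier of plasma) had a log2 fold change of -1.21 with 15.7 CPM in R-47 and 36.5 CPM in R-37 (adjusted p = 2.5e-07), and SERPINA6, the cortisol carrier, had one of -1.16. ANGPTL4, an inhibitor of lipoprotein lipase, rose with a log2 fold change of 1.22, and C8G, a subunit of complement C8, with one of 1.20. The machinery that folds and exports plasma proteins was mostly lower in R-47: of 23 tested genes 13 fell and 1 rose. That is 60.9% called, beside 25.1% of all genes, of which 13.2% were called lower. The median log2 fold change was -0.217. LMAN1, the cargo receptor that carries factor V out of the endoplasmic reticulum, averaged 92.6 CPM in R-47 and 140.5 CPM in R-37 (log2 fold change -0.60, adjusted p = 5.53e-05). PDIA3, a disulfide isomerase of glycoprotein folding, had a log2 fold change of -0.56, and MIA3, which helps load large cargo at exit sites, one of -0.47.

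Of 22 liver transcription factors, 2 rose and 6 fell (36.4%, beside 25.1% of all genes), with NR1I2 (log2 fold change 0.86) and HNF4A (0.28) higher, and ONECUT2 (-0.50), FOXA3 (-0.43) and NR2F1 (-0.34) lower in R-47. The number called lower was 3 without R-47 library 4 or R-37 library 4 and 1 to 3 on the FPKM scales, and the number called higher 4 without R-37 library 1. The FOXA3 call was lost without R-47 libraries 3, 4 or 5 or R-37 libraries 1 or 4 (adjusted p up to 0.0752). Of 18 genes of acute phase signalling, 3 rose and 2 fell (27.8%, close to the 25.1% of all genes), with 5 higher without R-37 library 1. SOCS3, a feedback inhibitor of STAT3 signalling, had a log2 fold change of 0.36 and RELA 0.27, and the receptors IL1R1 and TNFRSF1A had -0.49 and -0.31. Of the marker lists of other cell types, the leukocyte list summed to 156 to 201 CPM in R-47 and 83.2 to 93.9 CPM in R-37, with 3 of 4 tested genes called higher (CD79A, CD68 and ITGAM), while the defining markers PTPRC, CD3E and LYZ averaged under 0.2 CPM in both groups. Of 11 tested hepatocyte markers 3 rose and 1 fell (36.4%, beside 25.1% of all genes). ABCB11 (log2 fold change 1.01) and HNF4A were among those that rose, and the marker that fell was ALB, itself a plasma protein gene. Of 6 tested cholangiocyte markers 1 rose (KRT7) and 3 fell, and of 5 enterocyte markers 1 fell (CDH17). Fibroblast and endothelial lists summed to 17.6 to 20.9 and 70.0 to 79.1 CPM in R-47, against 18.0 to 26.9 and 66.2 to 78.3 CPM in R-37. Their part in the plasma protein results was not tested.

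The comparison of NFS1 with NC sets the libraries labelled NFS1 knockdown against NC, both heated; since the NFS1 transcript was not called lower (log2 fold change -0.11), the name of the contrast rests on the label. The plasma protein genes were called in both directions. CFI and ITIH2 rose 3.15-fold and 2.25-fold in the libraries labelled NFS1 knockdown, AMBP fell 2.21-fold, and FGB, the plasma protein gene with the most counts here, did not pass the test. Of the 22 genes tested, 3 were called higher and 5 lower (36.4%, beside 28.1% of all 15086 genes, 15.7% higher and 12.5% lower). Only CFI, ITIH2 and FGG (13.6% of the 22) were called without overlap, beside 19.6% of all genes tested. The median log2 fold change was -0.0587, beside 0.0171 over all genes. A call with a change over 2-fold was made for 4 genes (18.2%), beside 2.92% of all genes. Without NFS1 library 4, 4 of the genes were called higher and 5 lower. The number called lower was 2 without NFS1 library 3 or NC libraries 2, 4 or 5, and 3 without NFS1 library 5 or NC libraries 1 or 3. With the replicate number as a block it was 2.

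CFI had 3.85, 4.13, 4.34, 5.70 and 3.87 CPM in NFS1 and 1.71, 1.36, 1.97, 0.960 and 1.04 CPM in NC, so that every NFS1 library lay above every NC library. For CFI the log2 fold change was 1.65 (SE 0.20, adjusted p = 3.82e-05). ITIH2 had 2.29, 1.69, 1.77, 2.29 and 2.71 CPM in NFS1 and 1.26, 1.08, 0.922, 0.682 and 0.889 CPM in NC, a low level in both groups beside R-47 and R-37. For ITIH2 the log2 fold change was 1.17 (SE 0.20, adjusted p = 0.000671). FGG had 6.53, 6.59, 6.72, 7.66 and 7.52 CPM in NFS1 and 5.75, 6.35, 6.02, 4.65 and 5.33 CPM in NC, with a narrow gap between the groups. For FGG the log2 fold change was 0.33 (SE 0.11, adjusted p = 0.0286). The FGG call was lost without NFS1 library 5, NC library 4 or NC library 5 (adjusted p up to 0.0758). Its neighbours were not called. FGB had 101, 108, 106, 114 and 99.9 CPM in NFS1 and 105, 102, 96.5, 102 and 102 CPM in NC (log2 fold change 0.08, 95% interval -0.03 to 0.18), and FGA averaged 29.8 ± 1.87 CPM in NFS1 and 26.6 ± 1.41 CPM in NC (log2 fold change 0.18, adjusted p = 0.0651).

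The genes called lower had overlapping groups. AMBP had 1.84, 1.74, 1.67, 1.07 and 2.43 CPM in NFS1 and 2.39, 4.61, 4.41, 3.59 and 4.55 CPM in NC, where NC library 1 lay as low as the highest NFS1 library. For AMBP the log2 fold change was -1.14 (SE 0.21, adjusted p = 0.00126). F7 averaged 0.476 ± 0.148 CPM in NFS1 and 1.04 ± 0.391 CPM in NC. For F7 the log2 fold change was -1.11 (SE 0.31, adjusted p = 0.0168). The F7 call was lost with log2(FPKM + 1) and no filter (adjusted p = 0.0547) and without NFS1 libraries 2 and 3 together (0.109). F2 averaged 0.379 ± 0.183 CPM in NFS1 and 0.723 ± 0.114 CPM in NC. For F2 the log2 fold change was -0.91 (SE 0.32, adjusted p = 0.0455). F2 would not have passed the filter on its NFS1 libraries alone, and the F2 call was lost without any single library other than NFS1 library 1 (adjusted p up to 0.0948). APOB had 3.88, 3.95, 4.17, 6.97 and 4.35 CPM in NFS1 and 7.88, 8.04, 5.15, 6.39 and 6.58 CPM in NC, and NFS1 library 4 alone lay among the NC libraries. For APOB the log2 fold change was -0.53 (SE 0.17, adjusted p = 0.0351). APOC1 averaged 23.7 ± 4.79 CPM in NFS1 and 30.8 ± 2.40 CPM in NC. For APOC1 the log2 fold change was -0.36 (SE 0.12, adjusted p = 0.0417). The APOB call was lost without NFS1 libraries 1, 2, 3 or 5 or NC libraries 1, 2, 4 or 5 (adjusted p up to 0.0862), and the APOC1 call without NFS1 libraries 2 or 3 or NC libraries 2 to 5 (adjusted p up to 0.0925).

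Among the genes not called, ALB had 0.841, 0.423, 0.480, 0.687 and 0.734 CPM in NFS1 and 0.657, 0.845, 0.512, 0.657 and 1.57 CPM in NC, with overlapping groups and a log2 fold change of -0.41 (95% interval -1.03 to 0.21). SERPINA1 had 0.459, 0.497, 0.126, 0.789 and 1.01 CPM in NFS1 and 0.552, 1.15, 0.794, 0.859 and 0.940 CPM in NC, also with overlap. APOE had 2.50, 6.71, 4.97, 1.30 and 3.49 CPM in NFS1 and 1.05, 1.23, 2.05, 3.26 and 2.06 CPM in NC, a wide spread in both groups, with a log2 fold change of 1.00 (adjusted p = 0.065). APOE was called higher without NFS1 library 4 (log2 fold change 1.21, adjusted p = 0.0034) or NC library 4 (1.26, adjusted p = 0.0345), and C5 was called lower without NFS1 library 4 (-0.63, adjusted p = 0.00618). F5 (log2 fold change 0.36, adjusted p = 0.0677) was called higher without NFS1 library 1 (0.44, adjusted p = 0.0239) or NC library 1 (0.41, adjusted p = 0.049). FGA was called higher without NFS1 library 5 (0.21, adjusted p = 0.0347), and AHSG and HPX were called lower without NFS1 library 2 (-0.66, adjusted p = 0.0404, and -1.01, adjusted p = 0.0272). HPX would not have passed the filter on its NFS1 libraries alone, so the filter favoured its direction.

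**Figure D4:**
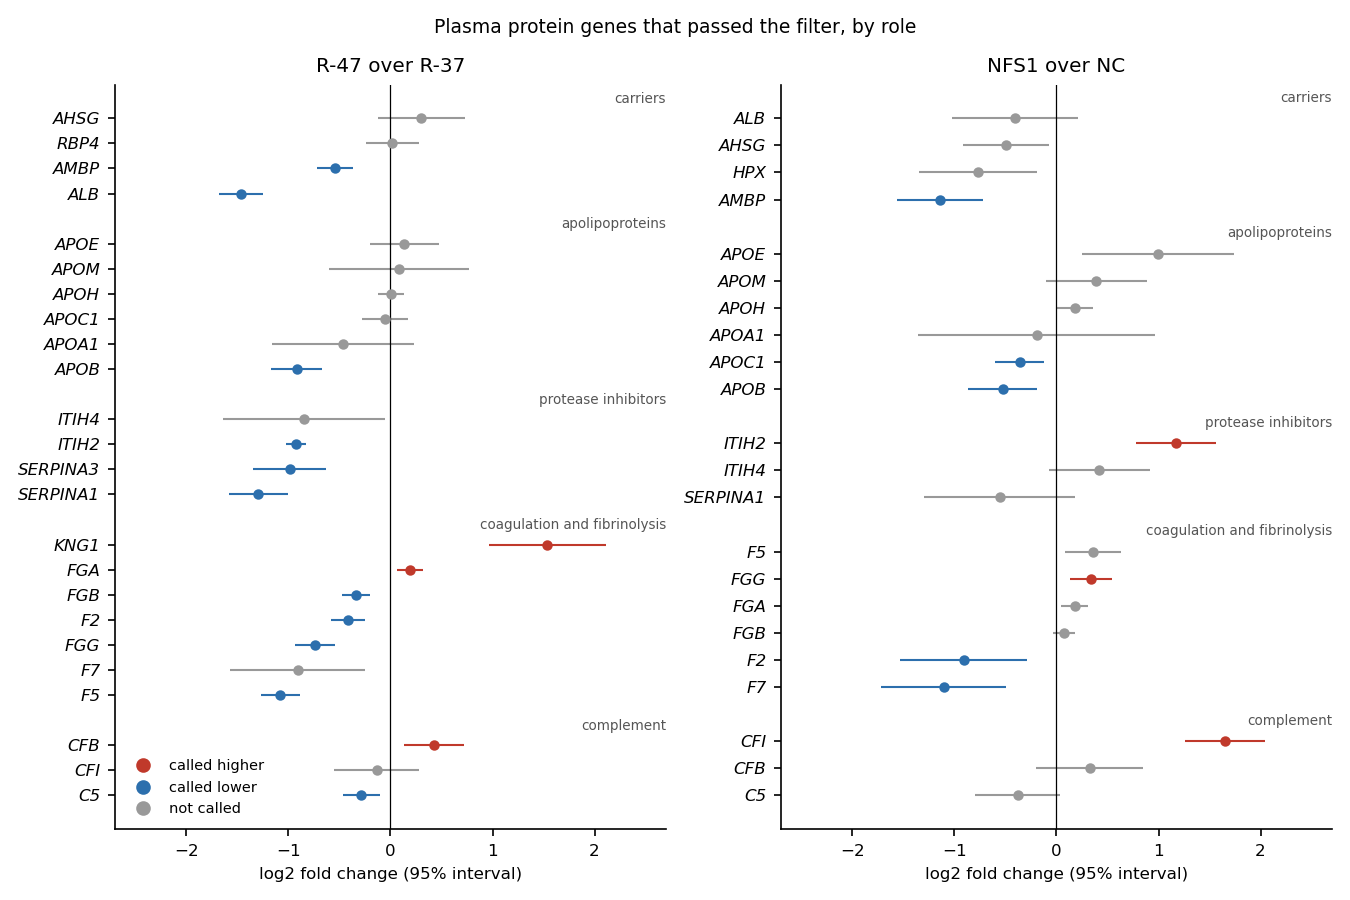
Log2 fold changes with 95% intervals of the plasma protein genes that passed the filter, by role, for R-47 over R-37 (left, 24 genes) and NFS1 over NC (right, 22 genes). Red points were called higher, blue points lower and grey points were not called. In the left panel most called genes lie below 0, and in the right panel they lie on both sides.

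Around these genes, 31 other plasma proteins were tested in the knockdown comparison, and 8 were called higher and 5 lower (41.9%, beside 28.1%), with a median log2 fold change of -0.0969. BCHE (butyrylcholinesterase, log2 fold change 1.51) and A1BG (1.23) were called higher, and PON3 (a paraoxonase, -0.97) and TF (-0.91) fell in NFS1. The A1BG call was lost without any single library other than NFS1 library 4 or NC library 4 (adjusted p up to 0.0865), and the number called lower was 3 without NFS1 library 3 or 5. Of 21 liver transcription factors 5 rose and 4 fell (42.9%, beside 28.1% of all genes). TCF7L2, an effector of Wnt signalling, had a log2 fold change of 0.92, PROX1 0.76 and RXRA 0.72. HNF4A averaged 67.3 CPM in NFS1 and 96.2 CPM in NC (log2 fold change -0.50, adjusted p = 4.18e-05), and NR5A2 had a log2 fold change of -0.80. Of 18 genes of acute phase signalling, 5 were called higher and 1 lower (33.3%), with CEBPD at 0.42, LIFR at 0.35 and SOCS3 at 0.34, and RELA at -0.24. The number called higher was 1 without NFS1 library 2 or NC library 2, 2 without NC libraries 3 or 4, and 3 without NFS1 libraries 3 or 5 or NC library 5. LIFR was not called without any of these libraries except NFS1 library 5 (adjusted p up to 0.111), and SOCS3 not without NFS1 library 2 or NC library 2 (adjusted p up to 0.0612). Of 23 secretion genes 1 was called higher (MTTP, which loads lipid onto APOB, 0.40) and 5 lower (26.1%, under the 28.1% of all genes), among them SEC23A, a coat protein of export vesicles (-0.32). The MTTP call was lost without NFS1 library 5 or NC libraries 3, 4 or 5 (adjusted p up to 0.0993), the SEC23A call without NFS1 libraries 2, 3 or 5 or NC library 2 (adjusted p up to 0.0638), and the number called lower was 3 without NFS1 libraries 2 or 3 or NC library 2. All 4 tested enterocyte markers fell in NFS1, where that list summed to 190 to 263 CPM, against 276 to 340 CPM in NC. Of 10 tested hepatocyte markers 4 fell (HNF4A, AFP, KRT8 and KRT18) and 1 rose. The part of these markers in the plasma protein results was not tested.

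NC and R-47 were both labelled wild type and both bathed at 47 °C, so their comparison shows how far the plasma protein genes differ between the experiments. RBP4 had no count in NC, ITIH2, F2 and ALB were 131, 12.4 and 5.95 times lower in NC, and FGB, APOB and APOC1 were 1.99 to 2.43 times higher. Of the 25 genes tested, 7 were called higher and 15 lower (88.0%, beside 79.7% of all 15080 genes, 40.1% higher and 39.6% lower). Of the 25, 19 (76.0%) were called without overlap, beside 67.2% of all genes tested. A call with a change over 2-fold was made for 18 genes (72.0%), beside 27.2% of all genes, and over 4-fold for 7 (28.0%), beside 10.6%. The median log2 fold change was -0.728, beside 0.011 over all genes. On their NC libraries alone RBP4, SERPINA3 and KNG1 would not have passed the filter, nor would HPX, F7 and ITIH4 on their R-47 libraries alone, so the filter favoured the directions these genes show. Among the 18 genes at the filter's level in every library of both groups, 4 were called higher and 12 lower. Of these 18, 13 (72.2%) were called without overlap, near the 67.2% of all genes tested. A call with a change over 2-fold was made for 12 of them (66.7%). The experiment, the stock of cells and anything else that differed between the cultures cannot be told apart.

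RBP4 had 0 counts in all 5 NC libraries and 4.05, 4.24, 3.62, 3.37 and 4.00 CPM in R-47, at least 48.9-fold lower in NC against a floor of 3 counts per library. The libraries labelled NFS1 knockdown, from the same experiment as NC, held 1 RBP4 count in all. ITIH2 had 1.26, 1.08, 0.922, 0.682 and 0.889 CPM in NC and 120.1 to 138 CPM in R-47. For ITIH2 the log2 fold change was -7.03 (SE 0.09, adjusted p = 8.5e-24). Both genes lie on chromosome 10, RBP4 at chr10:93591694-93601744 and ITIH2 at chr10:7703316-7749520. SERPINA3 had 2 counts over the NC libraries and 222 over the R-47 libraries, which is 122-fold lower in NC with a counting interval of 33.3 to 1010 (95%, exact). ITIH3, below the filter, had 1 count over the NC libraries and 52 over the R-47 libraries.

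F2 had 0.736, 0.820, 0.845, 0.632 and 0.584 CPM in NC and 7.99 to 10.4 CPM in R-47. For F2 the log2 fold change was -3.63 (SE 0.14, adjusted p = 9.12e-16). ALB had 0.657, 0.845, 0.512, 0.657 and 1.57 CPM in NC and 4.18 to 5.99 CPM in R-47, with NC library 5 the highest of its group. For ALB the log2 fold change was -2.57 (SE 0.22, adjusted p = 6.68e-10). CFB had 0.788, 0.487, 0.820, 0.581 and 0.813 CPM in NC and 3.19 to 4.07 CPM in R-47. For CFB the log2 fold change was -2.34 (SE 0.19, adjusted p = 1.77e-10). C5 had 5.04, 3.51, 3.38, 3.49 and 3.05 CPM in NC and 11.96 to 15.7 CPM in R-47. For C5 the log2 fold change was -1.92 (SE 0.12, adjusted p = 1.64e-12). KNG1 had 0.263, 0.0768, 0.205, 0.303 and 0.102 CPM in NC and 0.507 to 0.899 CPM in R-47. SERPINA1 had 0.552, 1.15, 0.794, 0.859 and 0.940 CPM in NC and 1.83 to 2.90 CPM in R-47. For SERPINA1 the log2 fold change was -1.45 (SE 0.21, adjusted p = 2.06e-06). None of F2, ALB, CFB, C5, KNG1 and SERPINA1 had overlapping groups. AMBP (log2 fold change -1.61), F5 (-1.47) and APOH (-1.29) were lower in NC in the same way, and APOE (-0.73), AHSG (-0.59) and FGA (-0.24) were called lower with overlap.

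The genes called higher in NC included lipoprotein and clotting proteins. FGB had 105, 102, 96.5, 102 and 102 CPM in NC and 39.8 to 45.2 CPM in R-47. For FGB the log2 fold change was 1.28 (SE 0.05, adjusted p = 2.98e-16). Its neighbour FGG was not called (log2 fold change -0.01, 95% interval -0.24 to 0.22). APOB had 7.88, 8.04, 5.15, 6.39 and 6.58 CPM in NC and 3.16 to 3.68 CPM in R-47. For APOB the log2 fold change was 1.00 (SE 0.13, adjusted p = 2.64e-07). APOC1 averaged 30.8 ± 2.40 CPM in NC and 15.6 ± 1.17 CPM in R-47. For APOC1 the log2 fold change was 0.99 (SE 0.07, adjusted p = 2.31e-11). HPX had 0.578, 0.666, 0.768, 0.682 and 0.457 CPM in NC and 0.109, 0.141, 0.164, 0.112 and 0.149 CPM in R-47, low in both but separate. F7 had 1.26, 1.41, 1.28, 0.531 and 0.711 CPM in NC and 0.219, 0.365, 0.491, 0.225 and 0.298 CPM in R-47. ITIH4 and APOM had log2 fold changes of 1.47 and 1.18.

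**Figure D5:**
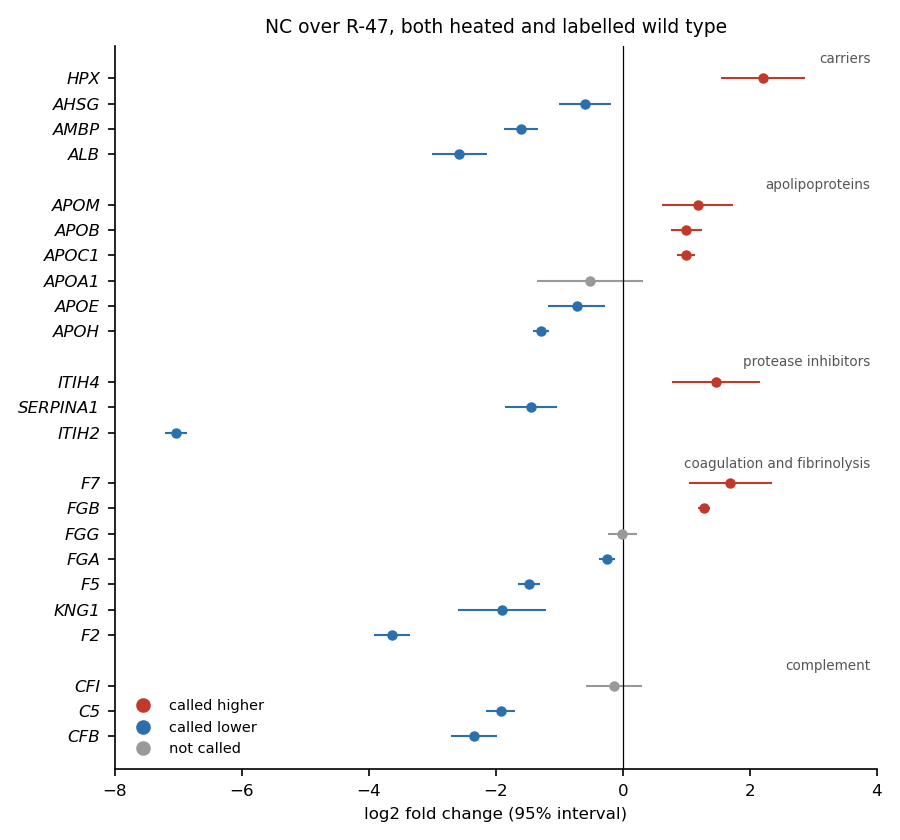
Log2 fold changes with 95% intervals of 23 plasma protein genes in NC over R-47, by role, leaving out RBP4 and SERPINA3, whose NC libraries held 2 counts or fewer in all. ITIH2 stands at -7.03 and F2 at -3.63, while FGB, APOB, APOC1, APOM, ITIH4, F7 and HPX lie above 0.

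The other liver gene lists were read against the 79.7% of all genes called between NC and R-47. Of 38 other plasma proteins, 10 were called higher and 26 lower in NC (94.7%), with a median log2 fold change of -1.40. C4BPA, a complement regulator, averaged 0.236 CPM in NC and 22.5 CPM in R-47, and AGT (angiotensinogen) 0.370 CPM in NC and 8.53 CPM in R-47. Of 22 liver transcription factors 10 were called higher and 9 lower (86.4%), with NR1H4 (the bile acid receptor, log2 fold change -5.13), NR1I2 (-2.86) and RXRA (-2.17) lower and ONECUT1 (2.35) higher in NC. HNF4A was also called higher, at 96.2 CPM in NC and 55.3 CPM in R-47 without overlap (log2 fold change 0.81). Of 18 genes of acute phase signalling 2 were called higher and 13 lower (83.3%), among them IL1B (-3.11), IL6R (-1.15), TNFRSF1A (-1.13) and SOCS3 (-1.02), but 7 lower with library size alone and 6 to 7 on the FPKM scales. Of 23 secretion genes 10 were called higher and 8 lower (78.3%, under the share of all genes), with SEC24C at 0.83, and TANGO2 at -1.36 and SORT1 at -0.91. Of the marker lists of other epithelia, the cholangiocyte list summed to 247 to 320 CPM in NC and 875 to 957 CPM in R-47, with 5 of 6 tested genes lower. The enterocyte list summed to 276 to 340 CPM in NC and 488 to 518 CPM in R-47. Of its 5 tested genes 3 were called lower, and CDX2 was called higher (19.0 CPM in NC and 12.1 CPM in R-47). Of 11 tested hepatocyte markers 2 were called higher and 7 lower (81.8%). All 4 tested fibroblast and stellate markers were called higher in NC. The part of all these marker lists in the plasma protein results was not tested.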

How the data were processed

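PolyA RNA was measured in 20 libraries of MHCC-97H cells. The submitters' processing notes name fastp, HISAT2, HTSeq and the build hg38. Neither their versions nor the annotation or the handling of strand is given in the sources used here. Raw counts per gene symbol were deposited with no normalization, and the authors also deposited FPKM, equal to each count divided by the library's total and by 1 length per gene. Libraries were matched to groups by title.

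Each comparison (R-47 over R-37, NFS1 over NC, NC over R-47) used its own 10 libraries, edgeR's filterByExpr (minimum count 10, total 15), TMM scaling and the quasi-likelihood test with Benjamini-Hochberg adjustment at 0.05 over all genes tested. The SE was taken as the absolute log2 fold change over the root of the F statistic. CPM values were scaled by TMM over all 20 libraries, so CPM serves within a gene and FPKM between genes. A floor is 3 counts in a library. Intervals are 95%, and those on counts cover counting error only. Promoters are RefSeq sequences of GRCh38.p14. HP has a near-identical neighbour, HPR, so its counts are uncertain.

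The genes, the gene lists and the naming rule were chosen with earlier results of these data known. Values per library are given for ALB, TTR, APOB, SERPINA1, FGB and C3 and for up to 10 called genes per comparison without overlap; others were added for description after their values were seen. From each further list up to 4 called genes are named, by size of change, and some list members are not reported here by name. Alternatives were DESeq2's size factors, DESeq2, library size alone, other filters, all libraries in 1 fit, a length offset, the replicate number as a block, limma on log2 FPKM, and libraries left out. R 4.3.3, edgeR 4.0.16, limma 3.58.1, DESeq2 1.42.0, Python 3.11.15, pandas 2.3.3, numpy 2.4.6, scipy 1.17.1 and matplotlib 3.10.9 were used.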

Additional observations from a re-analysis of the deposited data

Results flagged for a closer look

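In 98 sets of a plasma protein gene and a group of 5 libraries, 6 held a library far from the other 4, and chance gives about 1 in 20. In NFS1 library 4, the library farthest from its group across all genes, APOB stood at 6.97 CPM, C5 at 4.55 CPM and CFI at 5.70 CPM, each the highest of its group. In R-37 library 1, ITIH3 stood at 0.351 CPM and VTN at 0.731 CPM, each the highest of its group and at low counts. In NC library 1, C5 stood at 5.04 CPM, the highest of its group.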

How the results depend on the processing

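Of the results on single genes, 426 of 481 in the heat comparison, 405 of 472 in the knockdown comparison and 476 of 494 between NC and R-47 kept their direction and their side of the threshold under the alternatives tried. For R-47 over R-37, ALB, SERPINA1, SERPINA3, F5, ITIH2, APOB, FGG, AMBP, F2 and FGB kept their calls in every alternative that tested them. The number of the genes called higher was 1 with no filter and 1 to 3 with libraries left out, and called lower 10 to 11. Over all genes, 2669 to 4334 were called with a library left out. With library size alone 2976 genes were called higher and 1014 lower, beside 1714 and 1890 with TMM. Values near 0 changed sign: APOC1 was 0.0213 with library size alone, 0.0368 with log2(FPKM + 1), filtered or not, 0.0397 with log2(FPKM + 0.1) and -0.14 to 0.0399 with a library left out, positive only without R-37 library 1. APOH was -0.00264 with no filter, -0.00105 with all libraries in 1 fit, -0.0841 with a length offset and -0.0205 to 0.0546 with a library left out. APOM was -0.119 to 0.276 with a library left out, and RBP4 -0.0616 with the length offset and -0.0413 to 0.107 with a library left out.

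For NFS1 over NC, AMBP, ITIH2 and CFI kept their calls in every alternative that tested them. The number of the genes called higher was 6 with all libraries in 1 fit, 5 without NC library 1 and NFS1 library 4, and 2 to 4 with 1 library left out. The number called lower was 3 with a minimum count of 50, 1 with log2(FPKM + 1) or log2(FPKM + 0.1) at a mean FPKM of at least 1, 2 with log2(FPKM + 1) and no filter, 2 without NFS1 libraries 2 and 3, and 2 to 5 with 1 library left out. Over all genes 2769 were called without NFS1 libraries 2 and 3, and 3376 to 5137 with 1 library left out. APOA1 was -0.931 to 0.101 with a library left out. For NC over R-47, the genes called higher were 3 with a minimum count of 50 and 2 on either FPKM scale with a filter, and those called lower were 9 and 9 on these FPKM scales; with a library left out they were 7 and 15 throughout, and 11862 to 12201 over all genes. Library size alone gave 7465 genes higher and 4741 lower, beside 6043 and 5978, and moved the median of all genes to 0.19 on the log2 scale. FGG was 0.17 with library size alone, 0.0331 with a minimum count of 50, 0.125, 0.165 and 0.125 on the FPKM scales and -0.0642 to 0.0587 with a library left out, and CFI was 0.0401 with library size alone and 0.0105 with log2(FPKM + 1) and no filter. The cause of these moves was not tested, except that filters and fewer libraries change how many genes enter the test.

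The replicate numbers shared by the groups did not pair the libraries: libraries with the same number had a correlation of deviations of -0.231 to 0.149. With the replicate number as a block, 1437 genes were called higher and 1490 lower in R-47, 1733 and 1335 in NFS1, and 6073 and 6031 in NC, and 2 of the plasma protein genes were called lower in NFS1. Genes under about 1 CPM rest on few counts per library, which limits what can be seen of F7, KNG1, HPX, APOM and APOA1, and of F2, ALB and SERPINA1 in NFS1 and NC.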
